A study of Mus musculus with 3 samples.

Results

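Rab GTPases are small GTP-binding proteins, each of which is carried on particular membranes of the cell. Members of the family were taken as the mouse genes whose symbol is Rab followed by a number, with at most 1 letter and 1 further digit, and that have at least 1 transcript annotated as protein_coding. This gave 59 of the 55536 genes in the deposited gene quantification. The rule used no measured value.

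The RNA was polyadenylated RNA of primary macrophages grown from the bone marrow of C57BL/6J mice, sequenced in 3 libraries of 1 µg RNA each, which form a single group labelled as biological replicates 1, 2 and 3. All of them had received 100 ng/mL of the stimulus for 180 min. The sample description names the stimulus lipid A, the membrane anchor of bacterial lipopolysaccharide, while the source name and the treatment field say lipoprotein A. The age and sex of the animals were not collected, all 3 libraries carry one donor identifier, and nothing ties a replicate to an animal of its own, so the spread between replicates may be technical. No untreated macrophages were analysed here, so a level below is the state of stimulated cells and no value is a response to the stimulus.

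A Rab protein switches between a form bound to GDP, which a GDP dissociation inhibitor (GDI) keeps soluble in the cytosol, and a form bound to GTP on the membrane. Guanine nucleotide exchange factors (GEFs) load the GTP, GTPase-activating proteins (GAPs) speed up its hydrolysis, and effectors (tethers, motors, scaffolds) bind the GTP form and move or fuse the membrane. In macrophages this machinery is known for its part in phagosome maturation, in the degradation of engulfed material and in the secretion of cytokines.

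Expected counts, the authors' estimates of fragments per gene, summed to 24450338, 34641026 and 60595742 over mouse genes in replicates 1, 2 and 3. The 3 values given for a gene below are always in that order. Levels are in TPM, a share of all transcripts that is scaled by transcript length and so can be set side by side between genes. All 8 macrophage markers looked for were at 1 TPM or more in every replicate, among them Adgre1 (the F4/80 antigen), Csf1r and Cd68. Replicate 2 stood apart in genes listed as markers of other bone marrow cells. The summed level of 12 neutrophil markers was 123, 776 and 69.1 TPM, with Ly6g at 0. That of 6 megakaryocyte markers was 327, 1019 and 233 TPM, of which Pf4 alone had 322, 1001 and 226 TPM. Itga2b, Gp9 and Gp1bb were below 1 TPM in every replicate, though also highest in replicate 2. Whether these transcripts came from other cells was not tested.

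Of the 59 Rab genes, 39 were detected, that is, reached 1 TPM in all 3 replicates, beside 42.6% of all protein-coding genes. Among them 31 reached 10 TPM in every replicate and 11 reached 100 TPM. The levels of all members added up to 3249, 3438 and 3249 TPM, with a mean of 3312 ± 109 TPM (SD, n = 3). Rab7, Rab8b and Rab5c alone made up 33.4% ± 0.946 of that sum. The median over all 59 members was 13.2 ± 1.39 TPM, beside 14.6 ± 0.535 TPM over the 10026 genes of any type detected. These sets are unlike, since the 59 include 20 members that were not detected, while every gene beside them passed the 1 TPM limit. On the log2(TPM + 0.1) scale the family's median stood at -0.07, -0.39 and -0.01 relative to that of the detected genes, so replicate 2 was the furthest from the other libraries. The 39 detected members, which passed the same limit as the 10026 genes, had a median of 53.3 ± 1.31 TPM. The filter on low values shaped both of those medians, and the value of 53.3 TPM says nothing of the 20 other members.

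**Figure D1:**
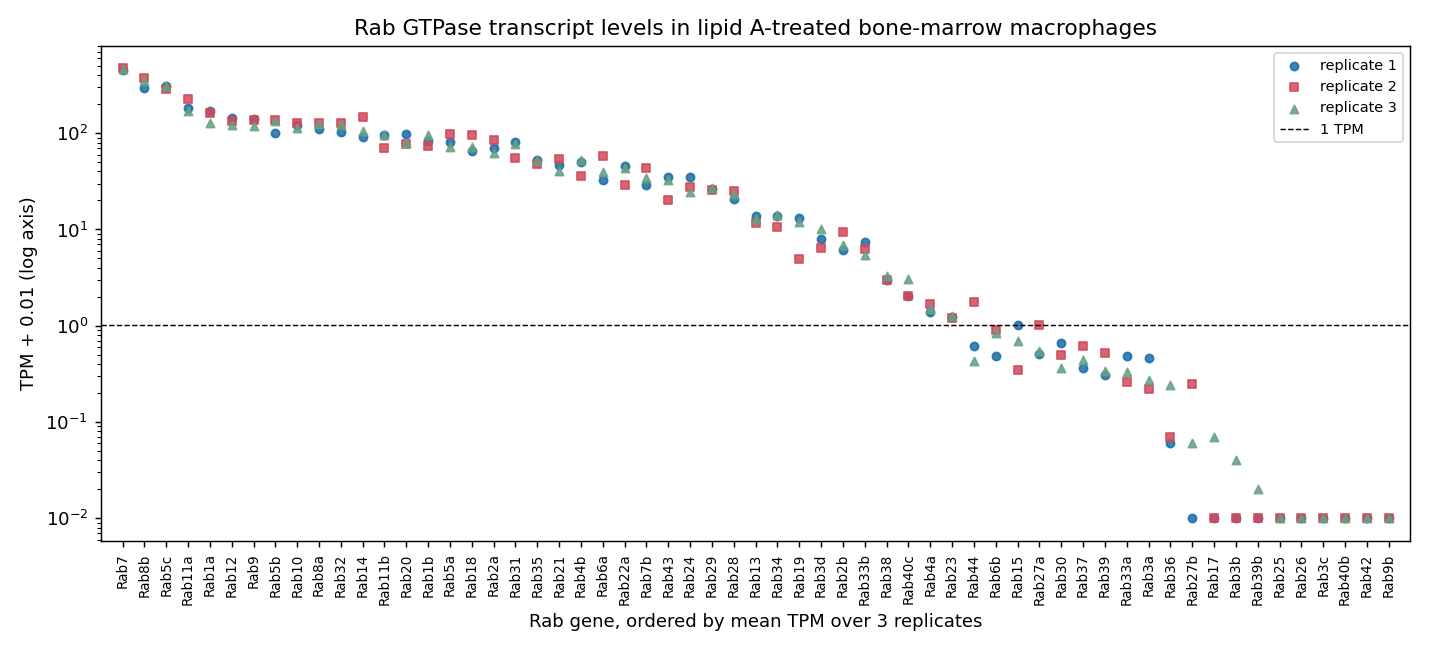
TPM of each of the 59 Rab genes (log axis, with 0.01 added so that a gene at 0 can be drawn) in replicates 1, 2 and 3, ordered by the mean, with a dashed line at 1 TPM. Levels ran from 464 TPM for Rab7 to 0 for 6 genes, and Rab19 had the widest spread of the detected members.

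Ordered by mean TPM, the detected members formed a nearly continuous series. Of the 38 neighbouring pairs in that order, 12 kept their order in every replicate. At the top, Rab7 was above Rab8b by 0.46 ± 0.15 on the log2(TPM + 0.1) scale in all 3 replicates, Rab8b and Rab5c changed places, and Rab5c, Rab11a, Rab1a and Rab12 followed in that order each time. From Rab12 down to Rab31, over 14 members between 134 and 70.8 TPM, no neighbouring pair kept its order. Near the detection limit the members just inside were Rab4a (1.39, 1.67 and 1.49 TPM) and Rab23 (1.21, 1.19 and 1.26 TPM), and those just outside were Rab44 (0.60, 1.77 and 0.42 TPM) and Rab6b (0.47, 0.89 and 0.83 TPM).

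By membrane step, Rabs of recycling and exocytosis held the largest share of the family's TPM, 32.8% ± 1.33 with 10 of 13 genes detected. Rabs of the late endosome, lysosome and autophagy held 24.00% ± 0.736 (5 of 6 detected), and those of the early endosome and phagosome 22.7% ± 1.10 (7 of 7 detected). The endoplasmic reticulum and Golgi held 15.0% ± 0.486 (10 of 14 detected). Lysosome-related organelles came to 4.43% ± 0.317 (3 of 6 detected), cilium, ubiquitin ligase and other roles to 0.803% ± 0.0558 (3 of 4 detected), and regulated secretion to 0.320% ± 0.0361 (1 of 9 detected). Many Rabs act at more than 1 step, and each was placed in a single group from its textbook role.

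**Figure D2:**
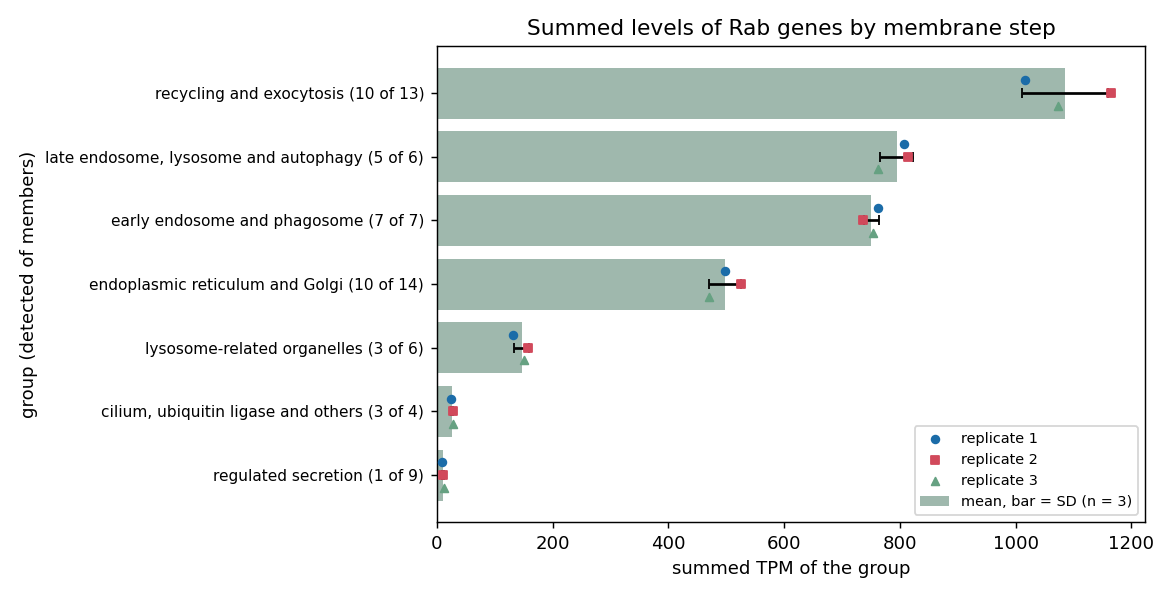
Summed TPM of the Rab genes of each membrane step, as the mean of 3 replicates (bars) with the SD and the single replicates (points); the number of detected members stands beside each name. Recycling and exocytosis summed to 1085 TPM, and regulated secretion to 10.6 TPM.

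Late endosomes and lysosomes were led by Rab7, the GTPase that recruits the machinery for fusion with lysosomes (chr6:87999106-88045270, minus strand, mm10). Rab7 had 458, 471 and 464 TPM, the highest level of the family. With a coefficient of variation (CV) of 1.34%, it was the steadiest of the detected members in the first quantification. The second quantification gave Rab7 a wider spread, with 356, 447 and 397 TPM. Over all detected genes it stood -0.39, -0.06 and -0.27 from the first on the log2 scale, as medians in replicates 1, 2 and 3. Relative to those medians Rab7 moved by 0.018 ± 0.030, so the wider spread is not particular to Rab7. Rab7 was also called in the chi-square test described further on. Rab12, known for directing the transferrin receptor to degradation, had 145, 135 and 121 TPM. Rab9, which serves transport between late endosomes and the trans-Golgi network, had 140.2, 138 and 119 TPM. Both were lowest in replicate 3. Rab7b, a separate gene in spite of its name, placed by work in human cells on traffic to the trans-Golgi network, had 28.7, 43.9 and 34.1 TPM. Rab24, linked to autophagy, had 34.8, 27.8 and 24.6 TPM. Rab24's leading transcript overlaps the neighbouring gene Prelid1, which had 161 TPM, over 52.8% of its 31-base stretches, so its level rests on how reads were divided between the 2 genes. Rab9b had no count in the first quantification, and 0, 5.60 and 2.18 estimated counts in the second.

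The early endosome and phagosome group was detected in full. Rab5c (chr11:100715009-100738215, minus strand), one of 3 Rab5 genes that drive homotypic fusion of early endosomes, had 310.4, 288 and 307 TPM. Rab5b had 101, 136 and 135 TPM, and was lowest in replicate 1. Rab5a had 80.1, 97.2 and 71.6 TPM, and was highest in replicate 2. All 3 Rab5 genes were thus transcribed in these cells, with Rab5c ahead in every replicate. Rab20, known for a role in phagosome maturation in macrophages, had 97.5, 77.7 and 78.9 TPM. Rab31, which acts between the trans-Golgi network and endosomes, had 81.1, 54.7 and 76.7 TPM. Its relative Rab22a, of early and recycling endosomes, had 46.0, 29.1 and 43.2 TPM. Rab22a and Rab31 were both lowest in replicate 2. Rab21, which takes part in integrin endocytosis, had 46.2, 53.5 and 40.4 TPM, so replicate 2 was the highest there.

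Recycling and exocytosis included the second most abundant Rab. Rab8b (chr9:66843664-66919687, minus strand), of exocytic traffic to the plasma membrane, had 296, 371 and 349 TPM. Rab11a, the marker GTPase of recycling endosomes, had 184, 225 and 168 TPM, and Rab11b had 96.2, 70.0 and 94.6 TPM. Replicate 2 was the highest for Rab8b and Rab11a and the lowest for Rab11b. Rab10, which has been tied to delivery of the lipid A receptor TLR4 to the surface of macrophages, had 121, 128 and 112 TPM. Rab8a had 110.1, 127 and 124 TPM, a value that depends on a short transcript described further on. Rab14, which moves membrane between the Golgi and endosomes and is found on phagosomes, had 90.7, 146 and 105 TPM. Rab14 stood out in this group for its spread, with a CV of 25.3% and the highest value in replicate 2. Rab35, of endosomal recycling, had 52.1, 47.9 and 53.0 TPM. Rab4b, of rapid recycling, had 50.5, 36.2 and 52.5 TPM, and Rab4a was near the detection limit. Rab13, best known from epithelial tight junctions, had 13.9, 11.6 and 12.8 TPM. The remaining 3 members of the group were not detected: Rab15 (1.01, 0.34 and 0.69 TPM), and the epithelial Rab17 and Rab25. Rab17 had 0, 0 and 3 counts and Rab25 had none, and of 4 epithelial markers Epcam, Krt8 and Krt18 had no count either.

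Among Rabs of the endoplasmic reticulum and Golgi, Rab1a, which is needed for transport between these compartments, had 168, 162 and 127 TPM. Its paralog Rab1b had 82.3, 73.2 and 96.6 TPM. Rab1a was lowest and Rab1b highest in replicate 3. Rab18, of the endoplasmic reticulum and lipid droplets, had 65.96, 95.1 and 72.5 TPM. Rab2a, which acts at the Golgi, had 70.9, 84.7 and 62.2 TPM, and Rab2b had 6.11, 9.33 and 6.86 TPM. Rab6a, of retrograde transport through the Golgi, had 32.8, 57.4 and 39.3 TPM. Each of Rab18, Rab2a, Rab2b and Rab6a was highest in replicate 2. Rab43, also a Golgi Rab, had 35.3, 20.4 and 32.5 TPM. Rab19 had 13.2, 4.88 and 11.96 TPM, with a CV of 44.9%, the widest of the detected members. Both were lowest in replicate 2. Rab34, linked to lysosome positioning and to cilia, had 13.8, 10.5 and 14.0 TPM. Rab33b, a partner of the autophagy protein Atg16l1, had 7.43, 6.23 and 5.43 TPM. The other 4 members of the group, Rab6b, Rab30, Rab33a and Rab36, had mean levels between 0.113 and 0.730 TPM.

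In the group of lysosome-related organelles, Rab32, which sorts cargo to such organelles and to pathogen-containing vacuoles, had 102, 128 and 120.3 TPM. Rab29, which recruits the kinase LRRK2 to membranes in human cells, had 26.4, 25.99 and 26.97 TPM. Rab38, the partner of Rab32 in melanosome formation, had 2.97, 2.97 and 3.28 TPM. Rab29 and Rab38 were steady between replicates, with CVs of 1.86% and 5.82%. Rab39 had a mean of 0.380 TPM, Rab39b had 1 count in replicate 3 alone, and Rab42 had none, beside 2, 1 and 2 estimated counts in the second quantification. In the last of the minor groups, Rab28 had 20.9, 24.8 and 23.3 TPM, Rab23, a regulator of hedgehog signalling, was at the detection limit, and Rab40c, which has a SOCS box that binds ubiquitin ligase subunits, had 2.05, 2.05 and 3.08 TPM. Rab40b had no count.

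Rabs of regulated secretion were the least represented, with Rab3d alone detected. Rab3d, found on secretory granules of non-neuronal cells, had 7.88, 6.40 and 10.03 TPM. Rab3a had a mean of 0.307 TPM, Rab3b had 1 count in replicate 3 alone, and Rab3c and Rab26 had none. In the second quantification Rab26 had none either, while Rab3c had 16.1, 7.48 and 16.1 estimated counts, at most 0.130 TPM. Where no count was found, a share of as much as 3 counts of the library cannot be told from 0, which was 1.23e-05%, 8.66e-06% and 4.95e-06% of all counts; such limits cover counting error only. The 4 members tied to granules of haematopoietic cells (Rab27a, Rab27b, Rab37 and Rab44), none of them detected, were all highest in replicate 2. They are only a part of this group. Replicate 2 was the highest for 43.9% of all detected genes, and no share over undetected genes was taken. Of undetected members of other groups, Rab6b and Rab39 were highest in replicate 2 too. Rab15, Rab30 and Rab33a were highest in replicate 1, and Rab17, Rab36 and Rab39b in replicate 3. In the regulated secretion group Rab3d, itself found on secretory granules, and Rab3a were lowest in replicate 2. Rab27a, of secretory lysosomes, had 0.50, 1.00 and 0.53 TPM. Rab27b had 0, 21 and 5 counts. Rab37, described in mast cell granules, had 0.35, 0.60 and 0.43 TPM. Rab44, a large Rab also described in mast cells, had 0.60, 1.77 and 0.42 TPM, from 30, 92 and 34 counts. The summed neutrophil and megakaryocyte markers given above were also highest in replicate 2, and their part in these levels was not tested. Both marker sums and Rab44 were lower in replicate 3 than in replicate 1. Rab27a, Rab27b and Rab37, all at or under 1 TPM, were not. The megakaryocyte sum was lower there through Pf4 alone. Itga2b, Gp9, Ppbp, Gp1bb and Itgb3 were each higher in replicate 3 than in replicate 1. In the chi-square test of the libraries described further on, Rab44 and Rab27a were called, Rab37 was not (adjusted p = 0.38), and Rab27b did not pass the low-count filter. Of the 12 neutrophil markers 5 were detected, with a sum between 69.1 and 776 TPM, and of the 6 megakaryocyte markers 3 were detected, with a sum between 233 and 1019 TPM. Of 6 mast cell markers Mcpt4, Cma1, Tpsb2 and Fcer1a had no count, Cpa3 had 1, 16 and 1, and Hdc, which macrophages also express, was the only one detected. In bulk RNA, fewer cells of a type and less RNA per cell cannot be told apart.

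Related Rab genes were compared within each library in 20 pairs chosen for sequence kinship. In 13 pairs both genes had at least 10 counts in every library; that limit was applied after the values were seen. The other 7 pairs got no ratio: Rab3d/Rab3a, Rab9b/Rab9, Rab27b/Rab27a, Rab33a/Rab33b, Rab39b/Rab39, Rab40b/Rab40c and Rab36/Rab34. In all 13 the same gene was ahead in all 3 replicates, and in 11 the mean difference was over 2-fold. The exact two-sided sign-flip permutation test gave p = 0.25 for each pair, the smallest value that 3 replicates allow, so no pair can pass 0.05 in this design. Ratios are on the log2(TPM + 0.1) scale, as mean ± SD over 3 replicates, first gene over second.

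The pairs furthest apart joined an abundant gene to a much lower one, which was near the detection limit for Rab6b and Rab4a. Rab6b/Rab6a stood at -5.71 ± 0.26, Rab38/Rab32 at -5.20 ± 0.17 and Rab4b/Rab4a at 4.83 ± 0.41. Rab7b/Rab7 stood at -3.72 ± 0.29, Rab2b/Rab2a at -3.28 ± 0.20 and Rab13/Rab10 at -3.23 ± 0.20. Rab6b is known as a neuronal form, and its level here was below 1 TPM while Rab6a was at 43.2 ± 12.8 TPM. In the middle of the range, Rab5a/Rab5c stood at -1.87 ± 0.28, Rab19/Rab43 at -1.63 ± 0.36 and Rab5b/Rab5c at -1.29 ± 0.29. Rab8b/Rab8a stood at 1.49 ± 0.06 and Rab11b/Rab11a at -1.15 ± 0.46. The closest pairs were Rab1b/Rab1a at -0.86 ± 0.40 and Rab22a/Rab31 at -0.85 ± 0.05. The Rab22a/Rab31 ratio had the smallest SD, also in the second quantification (-0.65 ± 0.09), although Rab22a by itself varied by a CV of 23.0%. The SD of Rab8b/Rab8a was 0.19 in the second quantification. With expected counts in place of TPM, Rab11b/Rab11a stood at -0.13 ± 0.41 and its direction differed between replicates; the leading transcript of Rab11a is 595 bases long and that of Rab11b 1544 bases, which the length scaling enters. The annotated coding sequences of 1 transcript per gene shared no identical run longer than 38 bases within a pair, the run in Rab1b and Rab1a. Some were short beside the partner's, with 303 bases in Rab36 against 777 in Rab34. Rab11a had 466 against 579 in Rab11b, and Rab7b 471 against 621 in Rab7. Runs outside the annotated sequences were not looked for.

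**Figure D3:**
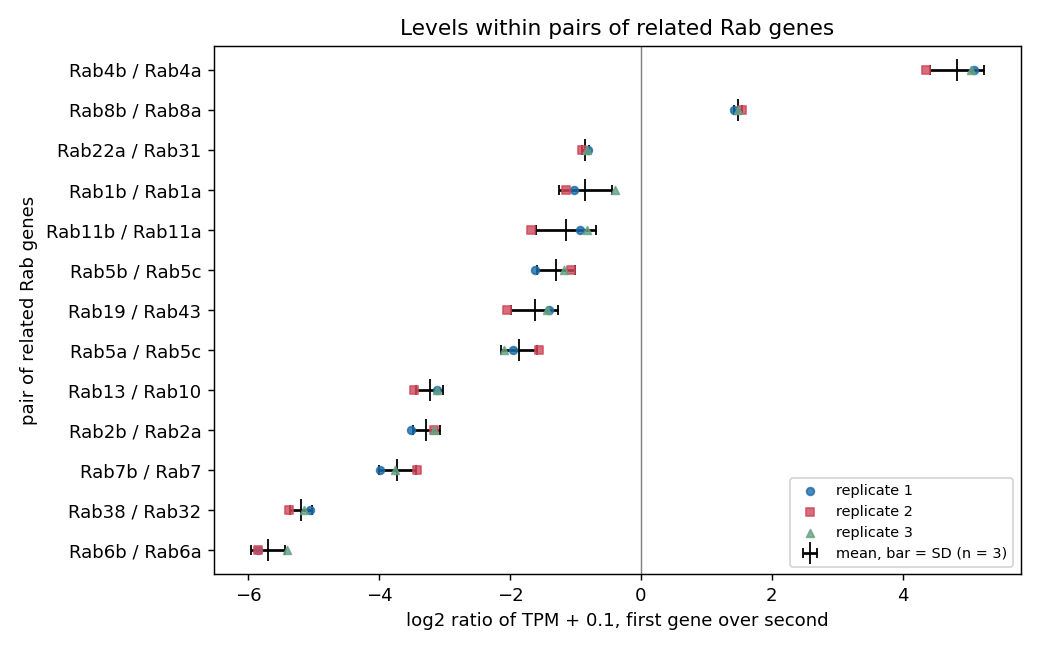
Log2 ratio of TPM + 0.1 within the 13 measured pairs of related Rab genes, first named gene over the second, in replicates 1, 2 and 3 (points) with mean and SD (bars). In all 13 pairs the replicates lie on one side of 0, from -5.71 for Rab6b/Rab6a to 4.83 for Rab4b/Rab4a.

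In 38 of 39 detected members the transcript with the highest mean TPM was a protein_coding one, beside 94.4% of detected protein-coding genes. The same transcript led in the second quantification in 37 members, beside 91.5% of those genes. The exceptions there were Rab22a and Rab23. In the first quantification, 6 detected members had at least 10% of the TPM on transcripts of other types, beside 31.7% of detected protein-coding genes: Rab8a, Rab23, Rab11b, Rab33b, Rab18 and Rab35.

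Rab8a was the member whose leading transcript was not coding. Rab8a-202, a transcript of type retained_intron with 5 exons and 542 bases, had 69.2, 95.0 and 84.2 TPM. The coding Rab8a-201, with 8 exons and 4550 bases, had 40.04, 32.2 and 39.9 TPM. Rab8a-202 thus held 68.4% ± 5.95 of the gene's TPM, and 68.9% ± 3.09 in the second quantification. In expected counts the order was the other way round, with 319, 570 and 878 counts for Rab8a-202 and 2757, 3193 and 6743 counts for Rab8a-201. The gene's level in TPM therefore rests on few fragments over a short transcript. Counting protein_coding transcripts alone, Rab8a had 37.4 ± 4.50 TPM in place of 121 ± 9.19 TPM and took rank 24 in the family in place of rank 10. The Rab8b/Rab8a ratio was then 3.18 ± 0.32. The end of Rab8a-202 is shown because these bases set it apart from the coding transcript; it lies at chr8:72175900-72176057 on the plus strand (GENCODE M21, mm10), with the last 30 exon bases in lower case and the 128 intron bases it keeps in capitals, 5′ to 3′.
Rab8a-202 end: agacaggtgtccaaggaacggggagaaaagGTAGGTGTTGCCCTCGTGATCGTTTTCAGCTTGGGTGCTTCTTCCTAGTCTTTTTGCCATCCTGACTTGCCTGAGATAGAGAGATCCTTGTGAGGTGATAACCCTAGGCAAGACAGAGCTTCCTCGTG

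Other members carried a minor share on transcripts that are not coding. Rab11b-204, of type nonsense_mediated_decay, had 23.5, 19.2 and 25.5 TPM and made up most of the 27.05% ± 0.907 of Rab11b on transcripts that are not coding; its own share was 26.3% ± 1.58, and 28.5% ± 1.14 in the second quantification. Rab18-204, of the same type, had 8.65, 16.8 and 14.5 TPM, or 16.9% ± 3.48 of Rab18, but 4.97% ± 2.68 in the second quantification. Rab35-202, also of that type, had 6.39, 7.16 and 10.5 TPM, or 15.7% ± 3.84 of Rab35, and 29.9% ± 2.76 in the second quantification. The shares of Rab18 and Rab35 on these transcripts thus depend on the quantification. In Rab33b a processed_transcript, Rab33b-203, held 18.7% ± 2.86 (13.7% ± 5.59 in the second quantification), and in Rab23, at the detection limit, other types held 49.3% ± 21.6. Rab11a had 7.62% ± 5.92 of its TPM on transcripts that are not coding, and the rest was spread over several coding ones: the 595-base Rab11a-201 had 105, 73.6 and 74.0 TPM, and the 2336-base Rab11a-208 had 48.0, 58.5 and 43.9 TPM. In expected counts Rab11a-208 had more, with 1601, 2788 and 3564 against 573, 529 and 920 for Rab11a-201.

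**Figure D4:**
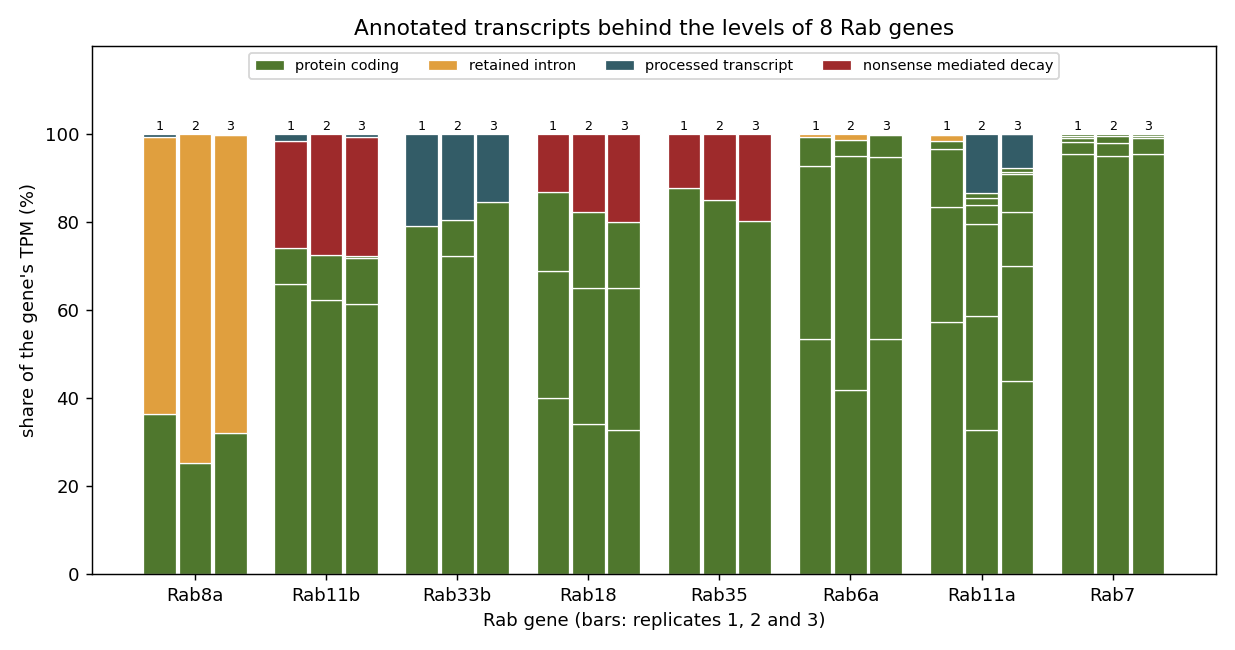
Share of the gene's TPM on each annotated transcript, coloured by transcript type, for 8 Rab genes in replicates 1, 2 and 3; each block is 1 transcript. Rab8a lies mostly on a retained_intron transcript (68.4%), Rab6a mostly on a pair of coding transcripts, and Rab7 on 1 coding transcript.

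Rab6a was transcribed as both of its known coding forms. The forms differ by a pair of mutually exclusive exons of 106 bases each, which encode a stretch of the GTPase domain, and 30 of the 106 bases differ. The exon of Rab6a-201 was carried by transcripts with 17.5, 23.99 and 21.02 TPM. That of Rab6a-202 and Rab6a-203 was carried by transcripts with 15.1, 32.6 and 18.2 TPM. The Rab6a-201 exon thus made up 53.8%, 42.4% and 53.6% of the pair, a mean of 49.9% ± 6.53, and 56.1% ± 7.30 in the second quantification. Replicate 2 was the one library in which the Rab6a-202 exon was ahead. Both exons are shown because their sequence is what tells the 2 forms apart. They lie on the plus strand of mm10 (GENCODE M21), at chr7:100629838-100629943 for Rab6a-201 and chr7:100629666-100629771 for Rab6a-202, and are written 5′ to 3′ with the bases that differ in capitals.
Rab6a-201 exon: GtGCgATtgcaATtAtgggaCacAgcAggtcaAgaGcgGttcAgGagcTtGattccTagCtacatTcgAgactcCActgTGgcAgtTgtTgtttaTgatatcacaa
Rab6a-202 exon: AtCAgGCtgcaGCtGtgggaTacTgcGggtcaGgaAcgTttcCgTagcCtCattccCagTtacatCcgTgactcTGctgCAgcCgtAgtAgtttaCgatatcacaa

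Some levels also depend on how the authors' software divided reads between genes. At least 10% of the 31-base stretches of the leading transcript, read on both strands, occur in another gene for 14 detected members, and in no detected member did another Rab of the family account for 5% or more. Rab43 shares 90.4% with Gm45140 and Rab4b 82.3% with Gm21983, which had 0.790 and 0 TPM. Rab2b shares 70.6% with Gm43766, at 0.0733 TPM. Those 3 partners were thus given little of the shared signal. Rab11b shares 32.4% with the processed pseudogene Rab11b-ps2, at 5.43 TPM, and Rab7 17.8% with Rab7-ps1, at 3.12 TPM. Rab6a shares 21.3% with Mrpl48, at 28.4 TPM, and Rab20 shares 24.01% with the noncoding E230013L22Rik, at 6.90 TPM. For Rab6a and Rab24 the partner's level was of the same order as the Rab or higher, so their levels are uncertain to that extent.

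The replicates differed for most members by more than counting error. A chi-square test of equal rates in the 3 libraries, on rounded expected counts scaled by edgeR TMM factors with Benjamini-Hochberg adjustment over all genes kept, called 39 of the 46 Rab genes that passed the low-count filter, beside 77.5% of all 11611 genes kept. Such a call says that libraries differ, not why, and the share is close to that of all genes. Among detected members Rab28, Rab38, Rab4a and Rab23 were not called, with adjusted p = 0.42, 0.45, 0.91 and 0.24. Without replicate 2, 25 members were called, beside 51.8% of all genes kept, so fewer calls were made among all genes too. The biological coefficient of variation estimated by edgeR had a median of 19.8% over the Rab genes kept and 21.3% over all genes kept.

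In TPM, 13 detected members had a CV under 10% and 17 between 10% and 20%. The other 9 were at 20% or more, beside 38.2% of all detected genes. In 38 of 39 members the highest replicate was within 2-fold of the lowest, Rab19 being the exception. No share over all genes was taken for this count, so it cannot be read as particular to Rab genes. The median CV was 15.2% over the detected members and 16.5% over all detected genes. After Rab19 the widest were Rab6a at 29.6%, Rab43 at 26.9%, Rab14 at 25.3%, Rab40c at 24.8%, Rab22a at 23.0%, Rab2b at 22.7% and Rab3d at 22.5%. Rab6a, Rab14 and Rab2b were high in replicate 2, while Rab43, Rab22a and Rab3d were low there and Rab40c was high in replicate 3.

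Replicate 1 was the highest for 13 detected members, replicate 2 for 17 and replicate 3 for 9, beside 30.4%, 43.9% and 25.7% of all detected genes. The base composition of the transcripts moved with this order. Across the 39 members the deviation of replicate 2 from the mean of the others was lower at higher GC content of the leading transcript (Pearson r = -0.57, Spearman rho = -0.66), as it did across 10017 detected genes (r = -0.43, rho = -0.49); these are correlations across genes of the same libraries, which are not independent replicates. Of the 19 members below the median GC content of 49.1%, 12 were highest in replicate 2, and of the 20 at or above it, 5 were. With the trends of GC content and length over all genes taken out of each library, 9 members were highest in replicate 2. The deviation of Rab19 in replicate 2 was then -1.41 on the log2 scale, against -1.35 before. That of Rab14 was 0.28, against 0.58 before, and that of Rab6a 0.42, against 0.68 before. No share over all genes stands beside the split by GC content or the 9 members, so neither can be read as particular to Rab genes. The part of base composition in these differences was not tested further.

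**Figure D5:**
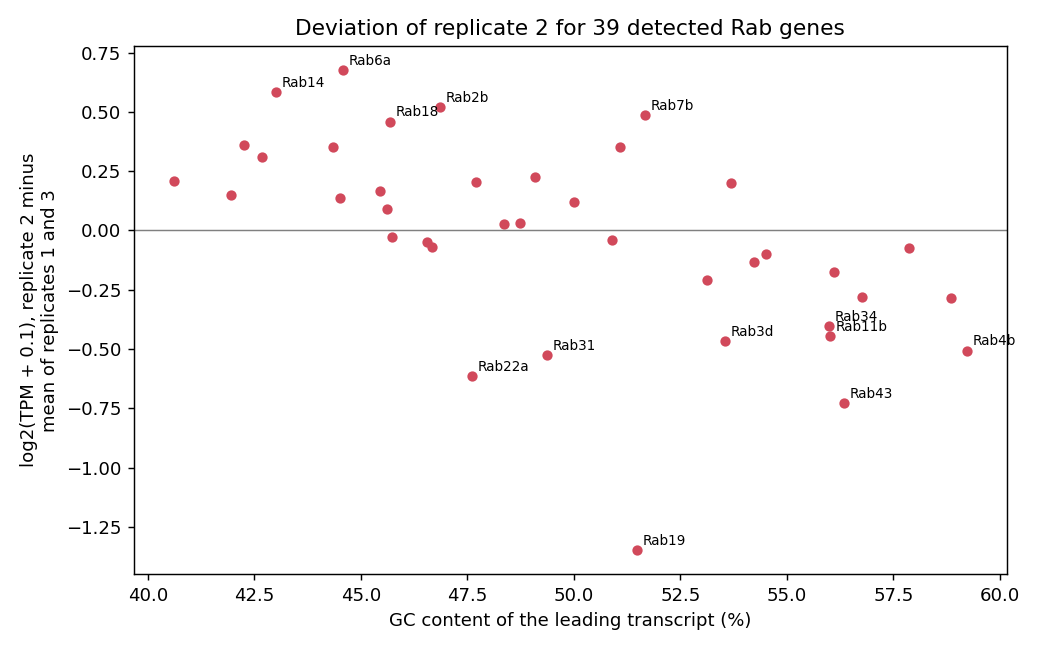
Deviation of replicate 2 from the mean of replicates 1 and 3 in log2(TPM + 0.1), against the GC content of the leading transcript (%), for the 39 detected Rab genes (points); those beyond 0.4 are named. Members of low GC content tend to lie above 0, members of high GC content below, and Rab19 lies lowest at -1.35.

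The genes that load, extract and read the Rabs were described from 6 lists. Of 176 such genes 142 were detected, or 80.7%, beside 42.6% of all protein-coding genes and the 39 of 59 Rab genes. The lists were chosen with earlier results of these data known, so these shares are descriptions only. All 13 genes for GDI, escort and prenylation were detected. Gdi2, a GDI, had 317, 448 and 413 TPM, a level between those of Rab7 and Rab8b. Arl6ip5 had 153, 128 and 141 TPM. Rabac1, a Rab acceptor of the Golgi, had 117, 73.5 and 126 TPM. The escort protein Chm had 8.72 ± 0.750 TPM, and the prenyltransferase subunits Rabggta and Rabggtb had 4.76 ± 0.734 and 16.3 ± 4.98 TPM; these last 3 were chosen after their values were seen.

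Of 46 GEFs, 41 were detected, with a median of 11.6 TPM. Sh3bp5, a GEF for Rab11, had 126, 153 and 122 TPM. Rin2, a GEF for Rab5, had 119, 136 and 107 TPM. Dennd5a, of the DENN domain family, had 94.6, 95.2 and 119 TPM. Dennd2c, Rin1, Dennd3, St5 and Dennd5b were below 1 TPM in every replicate. Of 37 GAPs, 29 were detected, with a median of 5.65 TPM. Tbc1d13 had 131, 100.3 and 111 TPM, Tbc1d1 77.9, 96.2 and 90.03 TPM, and Tbc1d9b 54.1, 41.7 and 54.5 TPM. Tbc1d10c was below 1 TPM and Sgsm1 had no count.

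Of 66 effectors, 47 were detected, with a median of 8.51 TPM. Myo5a, a myosin motor that several exocytic Rabs bind, had 209, 268 and 223 TPM. Rilpl2, which binds phosphorylated Rab8 and Rab10, had 137, 107 and 142 TPM. Rufy3 had 86.1, 70.2 and 56.3 TPM. All 19 effectors that were not detected lay below 1 TPM in every replicate. Among them were partners of the secretory Rab3 and Rab27 proteins, namely Sytl1 to Sytl5, Myrip, Mlph, Rph3a, Rph3al and Rims1, which stood beside Rab27a, Rab27b and the Rab3 genes at or under 1 TPM other than Rab3d. The rest were the recycling and motor partners Rab11fip3, Rab11fip4, Myo5b, Myo5c, Bicd1 and Hook1, and Mical3, Ehbp1 and Jakmip2. Unc13d (Munc13-4), a Rab27 partner named after its values were seen, had 10.9 ± 1.19 TPM.

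Of 9 Rab-like and related GTPases 7 were detected. Arl8a and Arl8b, which position lysosomes, had 149, 184 and 142 TPM and 96.4, 116 and 115 TPM. Ift22, of intraflagellar transport, had 31.7, 23.9 and 20.3 TPM. Cracr2a was below 1 TPM and Rasef had no count. All 7 genes of the list of Rab kinases and the C9orf72 complex were detected. Tbk1, which phosphorylates Rab proteins among other targets, had 95.5, 81.6 and 64.7 TPM. Ppm1h, a phosphatase of Rab proteins, had 43.8, 44.2 and 54.7 TPM. Smcr8, a subunit of the C9orf72 complex, had 33.2, 28.6 and 38.5 TPM.

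Promoters were compared by their content of CG dinucleotides, which are frequent at promoters of widely expressed genes. Sequences of 300 bases, from 250 before to 50 after each start, were found in RefSeq (GRCm38.p6) for 48 of the 59 members, and for each gene the start whose promoter had the highest ratio of observed to expected CG was used, which need not be the start of the GENCODE gene. The median ratio was 0.802 for 34 detected members and 0.617 for 14 members that were not detected. For all protein-coding genes it was 0.810 over 7544 detected genes and 0.325 over 8978 others.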

How the data were processed

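Per the text files deposited beside the data, the authors quantified each library against mm10 and GENCODE M21. Strandedness, the aligner and both quantifiers are not given in the sources used, so genes overlapping on opposite strands cannot be told apart. The authors' gene and transcript tables give expected counts, TPM and FPKM per the file headers, and their second transcript table gives estimated counts and TPM; each library has its own tables. FPKM served for 1 alternative. Entries other than mouse genes held 0.117%, 0.0993% and 0.0820% of the counts and stayed out of library sizes and tests.

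A gene was detected at 1 TPM in all 3 replicates. Log values are log2(TPM + 0.1), which understates ratios of low genes. Expected counts were rounded for the chi-square test, with edgeR 4.0.16 (TMM, filterByExpr, dispersion) in R 4.3.3, or DESeq2 1.42.0 size factors as an alternative; the test was tested on simulated data. The other steps used Python 3.11.15 (scipy 1.17.1, statsmodels 0.14.6). Amplified fragments are not independent molecules. Members, gene lists, pairs and role groups were chosen with earlier results of these data known. Named were the 20 highest members, the 8 detected members with the largest CV, all members of pairs, and of each regulator list the 3 highest genes and those under 1 TPM in every replicate. A limit of 3 counts was used for a count of 0. Alternatives were other TPM thresholds, FPKM, a pseudocount of 1 TPM, the second quantification, unscaled counts, other normalizations, no filter, and leaving out each replicate; added after the data were seen were protein_coding transcripts alone and the removal of GC and length trends by lowess.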

Additional observations from a re-analysis of the deposited data

How the results depend on the processing

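The 39 detected members were 34 at 5 TPM and 40 at 0.5 TPM, and 39 whichever replicate was left out. The family's median against detected genes was -0.16 on the log2 scale, with members taken without a filter and genes taken at 1 TPM or more. Over detected members alone, which passed the same filter as those genes, the value was 1.86, so its sign depends on the set of members. With 1 replicate left out, the value over all members lay between -0.15 and 0.0027, the last without replicate 2. The family's sum was 2800 TPM in the second quantification and 3140 TPM over protein_coding transcripts, against 3312 TPM, and between 3249 and 3344 TPM with a replicate left out. Members called as differing between replicates numbered 25 to 35 with a replicate left out, the lowest without replicate 2, against 39; over all genes kept the calls were 51.8% without replicate 2, 59.4% without replicate 3 and 66.2% without replicate 1, against 77.5%. Replicate 1 was the highest for 4 members and replicate 2 for 26 in the second quantification, against 13 and 17; the second quantification stood -0.39, -0.06 and -0.27 from the first on the log2 scale in replicates 1, 2 and 3, as the median over all detected genes. With GC and length trends removed, replicate 2 was the highest for 9 members, against 17, and replicate 3 for 14, against 9. For both alternatives no share over all genes stands beside the counts of the highest replicate. Those counts therefore cannot be read as particular to Rab genes. None of 91 alternative values of pair ratios changed sign, and 10 moved over 1.5-fold. Beyond Rab8b/Rab8a and Rab11b/Rab11a, these were the ratios in expected counts of Rab1b/Rab1a (-1.44), Rab5b/Rab5c (-0.49), Rab6b/Rab6a (-5.04), Rab19/Rab43 (-3.32) and Rab13/Rab10 (-5.20), and with a pseudocount of 1 TPM those of Rab4b/Rab4a (4.22) and Rab6b/Rab6a (-4.64). The cause was not tested. No paired analysis was possible because there is 1 group. Depth and the lack of a control limit the report to levels, and the sign-flip permutation test on 3 replicates cannot give a p under 0.25.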
